A study of Mus musculus with 9 samples.

Results

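The comparison described here set TC2R cells transfected with a plasmid for interleukin 27 carrying a non-specific control peptide (IL27_scr, the control-peptide group) against the same cells given the empty pcDNA3.1 plasmid (the empty-plasmid group). It used 6 of the 9 libraries of the study, 3 in each group, and all 12125 genes of the deposited count table. TC2R, or TRAMP-C2-Ras, is a mouse prostate adenocarcinoma line obtained from TRAMP-C2 by lentiviral transduction with activated H-ras, which cells of every group, controls included, carry. Each well received 1.5 µg of plasmid and 2 µL of Lipofectamine 2000 for 6 h, and RNA was collected 24 h after transfection began. The third group, IL27_pepL, expressed interleukin 27 with a peptide directed at the interleukin 6 receptor alpha chain and shares the fit that estimates the spread, and its own values appear only where it is set directly against the control-peptide group. No label states whether the 3 libraries of a group were separate cultures. P-values therefore measure the spread among these libraries, which may be technical.

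Interleukin 27 is a secreted cytokine made of 2 chains, the products of Il27 and Ebi3. It binds a receptor formed by Il27ra and the shared signalling chain gp130, encoded by Il6st. JAK kinases on the receptor then phosphorylate STAT factors, among them STAT3, and the pathway is known to overlap with the one that drives interferon-stimulated genes. The comparison asks how the transcripts of the cells differed after transfection with the cytokine plasmid when its peptide had no target.

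Total counts lay between 27609884 and 35078027 in the empty-plasmid group and between 30087806 and 35959983 in the control-peptide group. Log2 CPM values (counts scaled to a common library total) correlated across genes with r from 0.996 to 0.998 over the 15 pairs of the 6 libraries, where genes are not independent replicates. The root mean square log2 difference between libraries had a median of 0.153 over the 6 pairs within a group and 0.181 over the 9 pairs between groups. The labelled cell type was set against marker genes. Of 12 luminal epithelial markers 4 were in the count table, and among these the means in the empty-plasmid group were 4.72 CPM for Krt19, 2.20 CPM for Krt8 and 0.64 CPM for Cdh1. Of 12 mesenchymal markers 11 were in the table, with Vim at a mean of 2801 CPM, and their summed level was 3992 to 4141 CPM in the empty-plasmid group and 4008 to 4058 CPM in the control-peptide group. Vim made up most of that sum. Of the 11 markers 9 were below 0 on the log2 fold scale, against 51.6% of all genes, with a median of −0.12. Col1a1, Col1a2 and S100a4 were lower at an unadjusted p under 0.05, as were 1.68% of all genes. In these 3 markers every control-peptide library lay below every empty-plasmid library, as in 5.25% of all genes. None passed the adjusted threshold. The table held 0 of 4 basal epithelial and 0 of 8 lymphocyte markers, 2 of 6 neuroendocrine markers, 2 of 5 endothelial markers and 3 of 10 macrophage markers. The summed macrophage markers ran from 34.1 to 36.6 CPM in the empty-plasmid group and from 36.4 to 38.4 CPM in the control-peptide group. The epithelial markers named were thus low and mesenchymal markers abundant in both groups.

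Between the empty plasmid and the IL-27 plasmid with the control peptide, 3 transcripts passed the test. Of these, 2 are the chains of the cytokine that the plasmid was made to express, so their calls were given by the design. With almost no reads in the empty-plasmid group, both appear to be in the deposited table only through the groups that received an IL-27 plasmid. Both chains of the cytokine, Il27 and Ebi3, rose from almost no reads, and Rn45s, the precursor of ribosomal RNA made by RNA polymerase I, fell to 0.268 of its level with the empty plasmid. These 3 genes are 0.0247% of the 12125 tested at an adjusted p under 0.05 (quasi-likelihood test of edgeR, adjusted by Benjamini-Hochberg), 2 of them higher (0.0165%) and 1 lower (0.00825%). No receptor, kinase, STAT, interferon or STAT3 target gene of the lists examined passed the test.

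Il27, on the minus strand of chromosome 7 (126589010 to 126594941, mm10, GENCODE M21), encodes the helical chain of the cytokine. It received 0, 1 and 1 reads in the empty-plasmid libraries and 234, 244 and 179 reads in the control-peptide libraries. The groups were far apart, and the control-peptide libraries lay close to each other at 6.47 ± 0.50 CPM (SD, n = 3). Per unit of depth the reads were 300.4 times those of the empty plasmid, with an exact 95% interval for the ratio of counts from 82.8 to 2486 that covers counting error only. The fitted log2 fold change was 7.99 ± 0.31 (SE; adjusted p = 1.40e-08, edgeR), a value that depends on the prior count because the empty-plasmid libraries held 2 reads in all.

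Ebi3, on the plus strand of chromosome 17 (55952640 to 55957022), encodes the soluble receptor-like partner chain. It received 1, 2 and 0 reads with the empty plasmid and 266, 269 and 269 reads with the IL-27 plasmid, or 8.0 ± 0.76 CPM (SD, n = 3). The ratio per unit of depth was 245 (exact 95% counting interval 83.6 to 1191), and the log2 fold change was 7.78 ± 0.39 (SE; adjusted p = 1.76e-07, edgeR). Counts assigned to the annotated genes do not separate plasmid from chromosomal transcripts. Divided by coding length, 702 bases for Il27 and 684 bases for Ebi3, the 2 chains were read at similar levels. The ratio of Ebi3 to Il27 reads per kilobase was 1.17, 1.13 and 1.54 in control-peptide replicates 1, 2 and 3. Replicate 3 had the highest ratio because its Il27 count was the lowest of the 3.

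Rn45s was the transcript with the highest CPM in the empty-plasmid group and ranked 6 in the control-peptide group. Its counts were 522950, 360059 and 393490 in the empty-plasmid libraries and 136167, 112622 and 121744 in the control-peptide libraries. The groups did not overlap, and the libraries of each group lay near each other. As a share of all counts it made up 1.37% ± 0.15 with the empty plasmid and 0.373% ± 0.052 with the IL-27 plasmid (SD, n = 3 each). The log2 fold change was −1.90 ± 0.16 (SE; adjusted p = 1.01e-04, edgeR). No position is printed for Rn45s, which the annotation used here does not place. How RNA was selected before library preparation is not given in the sources used here, and its part in the Rn45s difference was not tested.

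**Figure D1:**
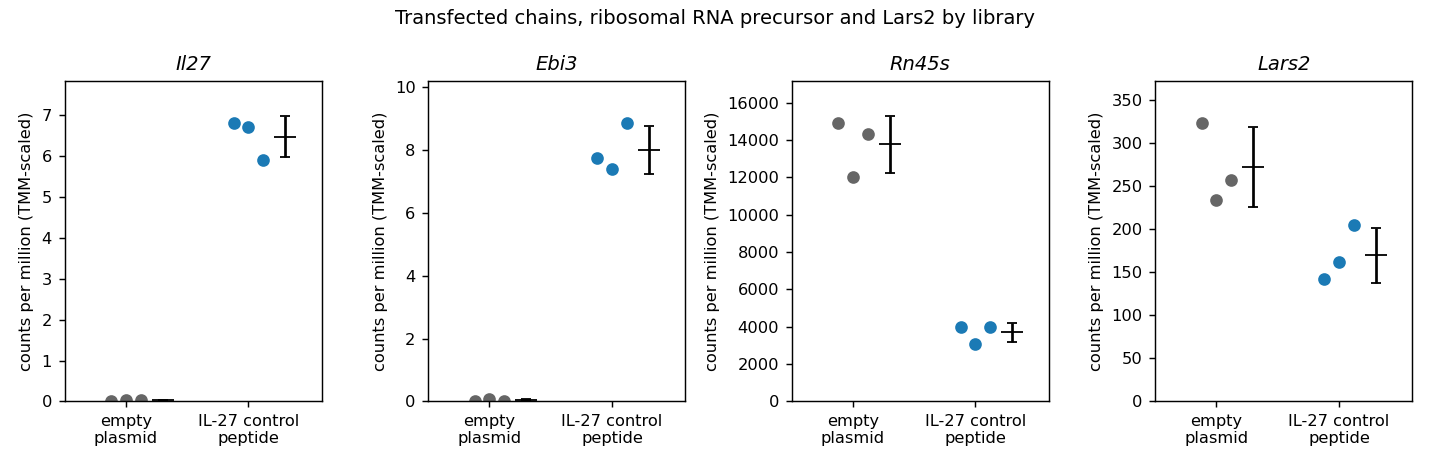
Level of Il27, Ebi3, Rn45s and Lars2 in each library, in CPM scaled by the TMM factors (vertical axes start at 0 and differ between panels), for the empty-plasmid group (grey) and the control-peptide group (blue), with bars for the mean ± SD (n = 3). Il27 and Ebi3 lie at or near 0 with the empty plasmid and at 5.90 to 6.82 and 7.40 to 8.86 CPM with the IL-27 plasmid, Rn45s lies at 12041 to 14916 against 3097 to 4010 CPM, and the Lars2 libraries do not overlap although Lars2 did not pass the test.

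Genes that could be read beside Rn45s were examined next. Of 32 genes for RNA polymerase I and ribosome biogenesis, 0 passed the test, and their median log2 fold change was 0.01, beside −0.003 for all genes tested. Of 77 cytosolic ribosomal protein genes, 0 passed and the median was −0.008. Lars2, the mitochondrial leucyl-tRNA synthetase (chromosome 9, 123366927 to 123462666, plus strand), had 324, 234 and 258 CPM with the empty plasmid and 142, 162 and 205 CPM with the IL-27 plasmid. Its groups did not overlap, yet at −0.68 ± 0.14 (log2 fold change ± SE; adjusted p = 0.798, edgeR) it did not pass the test. Of 25 replication-dependent histone genes, whose transcripts end without a poly(A) tail, 17 were below 0 (68.0%, against 51.6% of all genes). None passed the test, and the median was −0.25. That median rested on genes of low count: when genes had to reach 1 CPM in 3 or more libraries it was −0.004. At an unadjusted p under 0.05, 6 of the 25 histone genes were lower (24.0%, against 1.68% of all genes), and in 6 genes every control-peptide library lay below every empty-plasmid library (5.25% of all genes). The linker histone gene Hist1h1e overlapped between groups at 2.65 ± 0.68 and 1.61 ± 0.59 CPM (SD, n = 3 each), at −0.73 ± 0.25 (log2 fold change ± SE; adjusted p = 0.999, edgeR). Hist1h1c, at a higher level of 47.0 ± 5.2 and 48.9 ± 3.7 CPM, also overlapped. Of 4 further small structured or non-polyadenylated RNAs in the table, 3 were below 0, among them Malat1 (−0.27 ± 0.13, SE) and Neat1 (−0.16 ± 0.07), and 0 passed.

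In most genes the fold change was estimated within moderate bounds, gene by gene. Passing the test over all genes took more: Lars2, at 0.62 of its empty-plasmid mean of 272 CPM, did not pass. The 95% interval of the log2 fold change lay wholly within a 2-fold change in either direction for 11853 of 12125 genes (97.8%), and within a 1.5-fold change for 10935 (90.2%). Below 1 CPM only 67.7% of 753 genes had an interval within 2-fold, whereas from 10 to 100 CPM all but 1 of 6435 did. The central 95% of log2 fold changes ran from −0.27 to 0.24, and 9 genes had a change of at least 1 on the log2 scale in either direction. Besides the 3 called genes, these were Hist1h4d, Notum, Hist1h4b, Tmem25, Csn3 and AI450353, each with a mean below 1 CPM and none past the test. At an unadjusted p under 0.05 stood 312 genes (2.57%), of which 108 were higher (0.891%) and 204 lower (1.68%). That number was 207 without empty-plasmid replicate 3, 520 without IL27_pepL replicate 3 and 578 with only the compared groups in the fit.

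**Figure D2:**
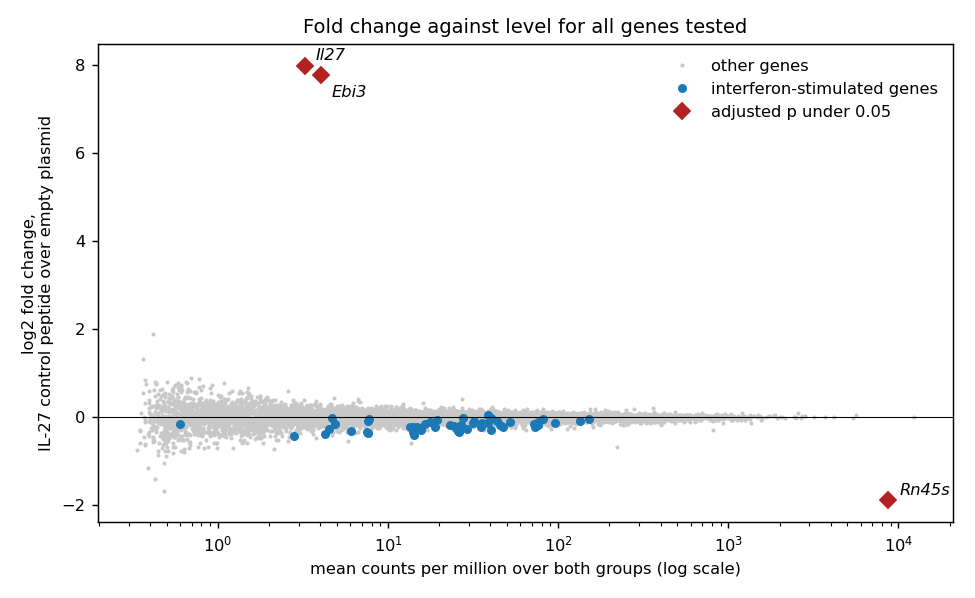
Log2 fold change of the control-peptide group over the empty-plasmid group (vertical) against the mean CPM over both groups (horizontal, log scale) for 12125 genes, with the 49 interferon-stimulated genes in blue and the 3 genes past an adjusted p of 0.05 as red diamonds. Il27 and Ebi3 stand near 8, Rn45s near −1.90 at the right edge, and the other genes form a band around 0 that is wider at low levels.

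Receptor genes and signalling genes of the IL-27 pathway were next in the order of their roles. Il27ra, the specific receptor chain (chromosome 8, 84030294 to 84042589, minus strand), was read at a low level: 2.48, 2.98 and 2.40 CPM with the empty plasmid and 3.09, 2.70 and 2.87 CPM with the IL-27 plasmid. The libraries of the groups overlapped, and the log2 fold change was 0.14, with a 95% interval from −0.16 to 0.43. Il6st, the shared gp130 chain (chromosome 13, 112464070 to 112510086, plus strand), was read at 172 ± 4.4 and 167 ± 4.0 CPM (SD, n = 3 each), with an interval of the log2 fold change from −0.14 to 0.06. Il6ra, the alpha chain that binds interleukin 6 and the target of the peptide in the third group, stood at 16.4 ± 1.3 and 15.6 ± 0.49 CPM, with an interval from −0.25 to 0.12. All 3 receptor genes were thus transcribed in both groups, and Il27ra was read at the lowest CPM of them.

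Among the transducers, 0 of 13 genes for IL-27 receptors, JAK kinases and STAT factors passed the test, with a median of −0.05. Jak1 (160 and 155 CPM), Jak2 (64.0 and 63.1 CPM) and Tyk2 (20.1 and 19.4 CPM) encode the kinases that act at gp130 receptors. Their log2 fold changes were −0.05, −0.02 and −0.05. Stat3 stood at 82.9 ± 2.4 and 83.3 ± 4.3 CPM (SD, n = 3 each), a log2 fold change of 0.01 with an interval from −0.11 to 0.12. Stat2, a component of the interferon-stimulated transcription factor, was the single member at an unadjusted p under 0.05, at −0.25 ± 0.09 (SE; adjusted p = 0.999, edgeR).

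Feedback and target genes of gp130 signalling gave a similar picture. Of 17 cytokine feedback inhibitors 0 passed the test and the median was −0.001. Socs3, the inhibitor that STAT3 induces, read 44.7, 38.3 and 47.4 CPM with the empty plasmid and 44.5, 39.1 and 40.6 CPM with the IL-27 plasmid, with a 95% interval of the log2 fold change from −0.24 to 0.10. Of 21 STAT3 and IL-6 response genes 0 passed and 14 were above 0, as were 48.4% of all genes. The median was 0.04, or 0.03 without empty-plasmid replicate 1. Every library of the control-peptide group had a mean log2 CPM over these 21 genes (5.84 to 5.87) above every empty-plasmid library (5.72 to 5.81). For 6 of the 21 genes (28.6%) the control-peptide libraries were all above the empty-plasmid libraries, as they were for 4.75% of all genes. Lif, a cytokine of the same family, was read at 32.8, 32.9 and 30.9 CPM with the empty plasmid and at 38.2, 35.9 and 35.1 CPM with the IL-27 plasmid, a log2 fold change of 0.18 ± 0.06 (SE; adjusted p = 0.999, edgeR). Lcn2, an iron-binding acute phase protein, read 4.85, 3.24 and 4.08 against 5.33, 5.61 and 5.60 CPM, at 0.43 ± 0.18. Both were higher in every control-peptide library, by an amount that did not pass the test over all genes.

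Interferon-stimulated genes, which the antiviral interferon programme induces, leaned to the other side. Of 50 genes listed 49 were in the table and 0 passed the test in either direction. All but Oasl1 (0.05) had a log2 fold change below 0, that is 48 of 49 (98%) against 51.6% of all genes, and the median was −0.18 beside −0.003 for all genes. At an unadjusted p under 0.05, 20 of the 49 were lower (40.8%), where 1.68% of all genes were, and these 20 made up 9.80% of the 204 genes so found. For 20 genes every control-peptide library lay below every empty-plasmid library, a pattern found in 5.25% of all genes.

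An empty-plasmid library stood apart in this pattern. The mean log2 CPM of the 49 genes was 4.64, 4.42 and 4.50 in the empty-plasmid libraries and 4.29, 4.35 and 4.38 in the control-peptide libraries, so the groups did not overlap. Empty-plasmid replicate 1 was the highest of the 6 libraries for 39 of the 49 genes. Without it, 4 of the 49 genes were lower at an unadjusted p under 0.05. Over all genes 2.00% then had such a p in either direction, beside 2.57% in the main fit. Without control-peptide replicate 1 or replicate 2 the number was 13 in each case, and with only the 6 compared libraries in the fit it was 31. The shares of all genes under these settings were 2.71%, 1.85% and 4.77%. The median without empty-plasmid replicate 1 was −0.12.

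Irf7, a transcription factor that amplifies the interferon response (chromosome 7, 141262706 to 141266481, minus strand), was read at 19.5, 13.7 and 15.5 CPM with the empty plasmid and at 11.6, 12.3 and 13.0 CPM with the IL-27 plasmid. The groups did not overlap, with a gap of under 1 CPM between them, and the log2 fold change was −0.41 ± 0.13 (SE; adjusted p = 0.999, edgeR). Parp14, an ADP-ribosyltransferase (chromosome 16, 35832874 to 35871544, minus strand), was read at 32.7, 27.1 and 28.2 against 22.4, 23.5 and 23 CPM, at −0.35 ± 0.09. Phf11d, a PHD finger gene, was read at 9.21, 7.96 and 8.67 against 6.70, 6.63 and 6.62 CPM, at −0.38 ± 0.11. In each of these 3 genes empty-plasmid replicate 1 was the highest library. Isg15, a ubiquitin-like modifier, did overlap between groups, at 37.2 ± 2.7 and 34.0 ± 3.9 CPM (SD, n = 3 each). Of the 12 interferon-inducible GTPases in the table, which restrict intracellular pathogens, 12 were below 0, as were 51.6% of all genes. Of these GTPases 0 passed, and the median was −0.15. Their mean log2 CPM was likewise highest in empty-plasmid replicate 1, at 2.92 beside 2.75 and 2.83 in replicates 2 and 3. In the control-peptide libraries it was 2.65, 2.66 and 2.72. Among the GTPases Iigp1 stood at −0.35 ± 0.14 and Gbp3 at −0.24 ± 0.09 (log2 fold change ± SE).

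**Figure D3:**
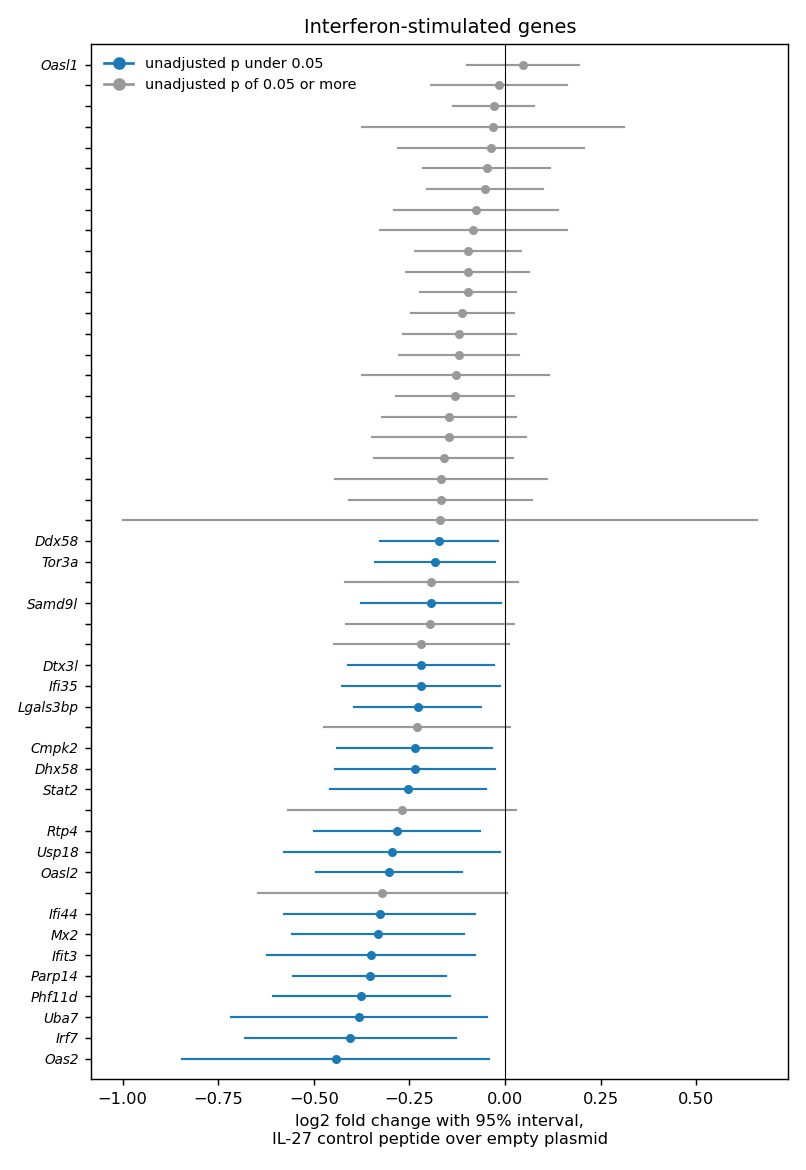
Log2 fold change of the control-peptide group over the empty-plasmid group with its 95% interval (horizontal) for the 49 interferon-stimulated genes in order of fold change, in blue where the unadjusted p was under 0.05; gene names are given for these and for Oasl1. All points except Oasl1 lie left of 0, from −0.44 to −0.02, and no gene passed an adjusted p of 0.05.

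The promoters of 3 interferon-stimulated genes lower at an unadjusted p under 0.05 are printed, marked for an element that interferon-stimulated genes are known for. They were chosen after their values were seen, and are the 250 bases before the RefSeq transcription start (GRCm38.p6, mm10), 5′ to 3′ on the strand of the gene. Capitals mark every match to GAAANNGAAA, the core of the interferon-stimulated response element, or to its reverse complement. Ifit3, an antiviral RNA-binding protein, lies on the plus strand (chr19:34583279-34583528). Stat2 lies on the plus strand (chr10:128270248-128270497) and Irf7 on the minus strand (chr7:141266425-141266674).
Ifit3: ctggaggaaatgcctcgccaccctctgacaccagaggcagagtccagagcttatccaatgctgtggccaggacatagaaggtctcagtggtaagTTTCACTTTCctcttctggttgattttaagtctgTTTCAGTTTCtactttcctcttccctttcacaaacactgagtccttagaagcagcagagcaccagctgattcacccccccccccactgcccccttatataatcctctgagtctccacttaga
Stat2: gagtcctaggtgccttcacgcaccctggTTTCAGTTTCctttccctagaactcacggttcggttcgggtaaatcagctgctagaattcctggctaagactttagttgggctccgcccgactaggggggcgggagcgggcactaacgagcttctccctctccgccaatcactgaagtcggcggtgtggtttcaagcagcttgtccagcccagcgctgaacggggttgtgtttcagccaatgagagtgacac
Irf7: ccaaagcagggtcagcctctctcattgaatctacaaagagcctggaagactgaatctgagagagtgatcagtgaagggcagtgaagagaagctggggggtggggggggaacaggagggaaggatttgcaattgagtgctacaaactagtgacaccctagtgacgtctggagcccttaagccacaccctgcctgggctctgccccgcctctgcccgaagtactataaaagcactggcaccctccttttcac
Ifit3 held 2 matches, Stat2 held 1 and Irf7 held 0 within these 250 bases. Other list genes lower at an unadjusted p under 0.05 and with a RefSeq promoter held 0 matches each. These were Phf11d, Oasl2, Lgals3bp, Ifi44, Cmpk2, Dtx3l, Uba7, Ddx58, Ifi35 and Samd9l. Among interferon-stimulated genes with a promoter in the RefSeq table, 9 of 36 held a match on either strand (25.0%), against 285 of 9262 genes tested (3.08%). Apart from Ifit3 and Stat2, none of these 9 genes was lower at an unadjusted p under 0.05. The STAT palindrome TTCNNNGAA was in 6 of the 36 (16.7%) and in 659 of the 9262 (7.12%). A match describes the letters and is not evidence of binding in these cells. Ifit3 was read at 17.6, 13.8 and 16.1 CPM with the empty plasmid and at 11.9, 12.9 and 12.4 CPM with the IL-27 plasmid, and Stat2 at 30.5, 22.8 and 28.6 against 23.3, 22.4 and 23.2 CPM. Ifit3 did not overlap between groups and Stat2 did. Neither passed the test (adjusted p = 0.999 for each, edgeR).

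Other gene groups of the cell were largely alike in both groups. Over the 27 lists with genes in the table, 653 genes were measured, 0 passed the test, and 639 (97.9%) had a 95% interval within a 2-fold change. The list median was under 0.1 in size on the log2 scale for 23 of the 27 lists. The mean log2 CPM of a list was lower in every control-peptide library than in every empty-plasmid library for 4 lists. These were the interferon-stimulated genes, the interferon-inducible GTPases, the replication-dependent histones and the mesenchymal and matrix genes. For the mesenchymal and matrix genes the highest control-peptide value was 6.478 and the lowest empty-plasmid value 6.492. The histone list rests on genes of low count, as described above. The mean log2 CPM was higher for the STAT3 and IL-6 response genes, and it overlapped for the other 22. Medians were −0.03 for 21 genes of MHC class I presentation, 0.06 for 22 NF-kB targets and 0.05 for 11 immune checkpoint and regulatory ligands. They were −0.02 for 21 nucleic acid sensing genes and −0.02 for 17 Notch pathway genes. Medians of stress lists were −0.004 for 23 unfolded protein response genes, 0.02 for 21 ATF4 targets and −0.002 for 13 heat shock genes. They were 0.007 for 29 DNA replication and mitosis genes, 0.003 for 28 genes of MAPK output, −0.01 for 25 genes of cholesterol and fatty acid synthesis and 0.0004 for 76 oxidative phosphorylation genes. Counts of the mouse gene Hras were also alike, at 44.5 ± 1.7 and 43.1 ± 1.6 CPM (SD, n = 3 each). They do not separate the delivered H-ras from the cell's own copies. Whether reads of the delivered H-ras are among them was not tested.

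**Figure D4:**
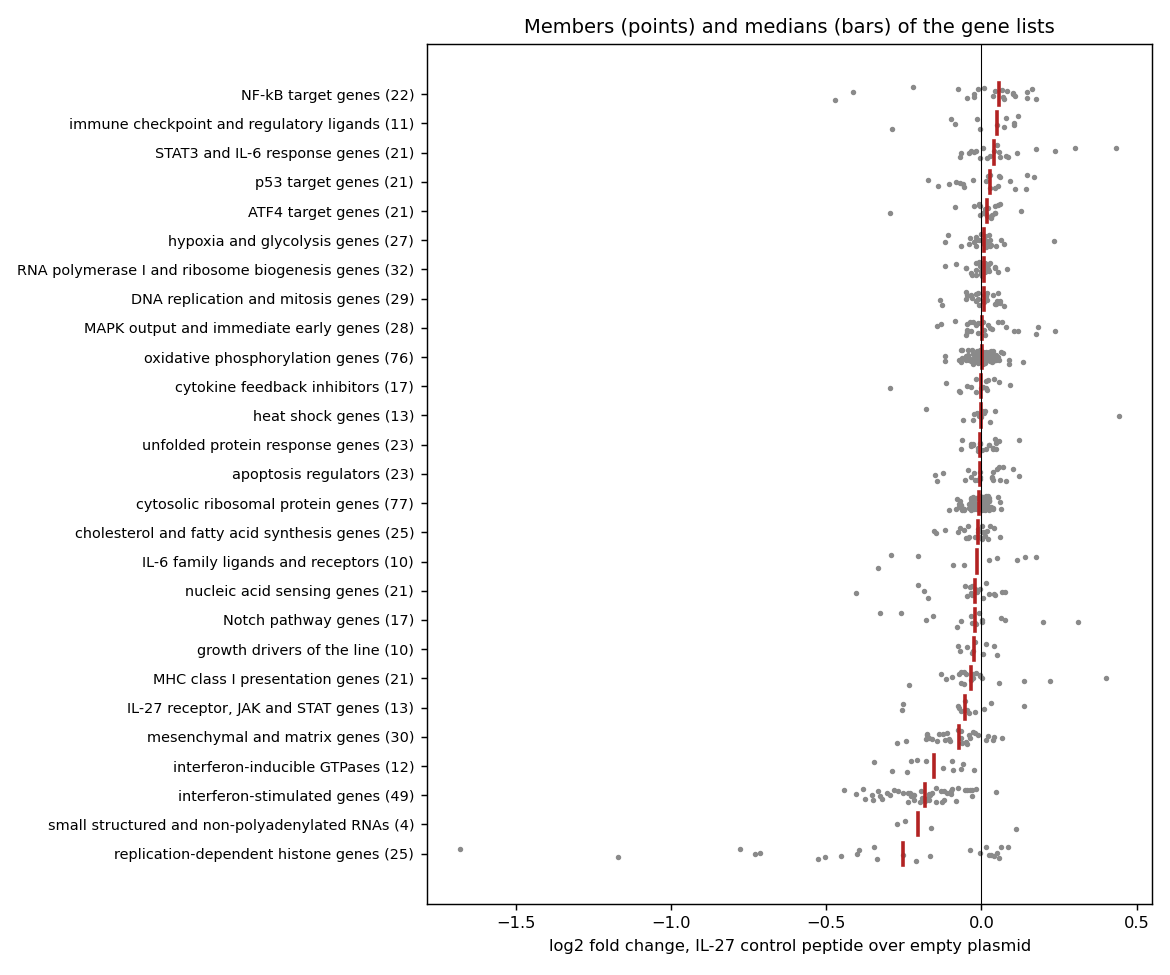
Log2 fold change of the control-peptide group over the empty-plasmid group for the members (grey points) of 27 gene lists, with the list median as a red bar and the number of measured members in brackets. Medians run from −0.25 for replication-dependent histone genes to 0.06 for NF-kB target genes, and 23 of 27 lie within 0.1 of 0.

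Matrix genes were mostly lower, by amounts that did not pass the test. Of 30 mesenchymal and matrix genes 25 were below 0 (83.3%, against 51.6% of all genes) and 0 passed the test, with a median of −0.07. For 11 of the 30 (36.7%) every control-peptide library was below every empty-plasmid library, as for 5.25% of all genes. Col1a2, a chain of type I collagen, read 320, 317 and 317 CPM with the empty plasmid and 290, 293 and 285 CPM with the IL-27 plasmid, at −0.14 ± 0.05. Col1a1, the other chain, read 112, 106 and 108 against 98.4, 96.5 and 94.6 CPM, at −0.17 ± 0.05. Postn, a matricellular protein, read 29.3, 27.7 and 28.6 against 25.7, 21.9 and 23.4 CPM, at −0.27 ± 0.09 (log2 fold change ± SE for each). The groups did not overlap in any of these 3 genes. The intermediate filament gene Vim overlapped between groups at 2801 ± 62.5 and 2841 ± 28.5 CPM (SD, n = 3 each).

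**Figure D5:**
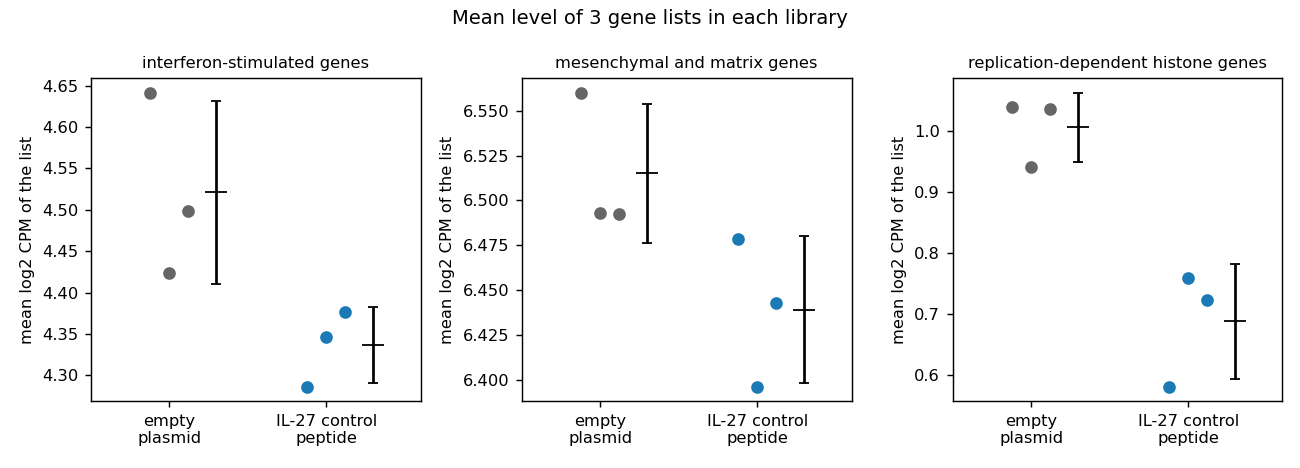
Mean log2 CPM over the measured members of 3 gene lists in each library of the empty-plasmid group (grey) and the control-peptide group (blue), with bars for the mean ± SD (n = 3) and vertical axes that differ between panels and do not start at 0. The interferon-stimulated genes lie at 4.42 to 4.64 against 4.29 to 4.38, the mesenchymal and matrix genes at 6.49 to 6.56 against 6.40 to 6.48, and the histone genes at 0.94 to 1.04 against 0.58 to 0.76. The histone panel includes genes of low count. The median log2 fold change of that list was −0.004 when genes had to reach 1 CPM in 3 or more libraries.

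The genes nearest to the threshold without passing it were mostly lower with the IL-27 plasmid. Akap9, a scaffold of the centrosome and Golgi (chromosome 5, 3928054 to 4081310, plus strand), read 44.6, 45.1 and 42.5 CPM with the empty plasmid and 36, 36.3 and 33.5 CPM with the IL-27 plasmid. The libraries of each group lay together and the groups were apart, at −0.32 ± 0.07 (SE; adjusted p = 0.798, edgeR). DESeq2's Wald test called Akap9 as a 4th gene (adjusted p = 0.0438), and its adjusted p ran up to 1.00 over the alternatives. Col6a3, a chain of type VI collagen, read 31.2, 28.4 and 31.7 against 24.3, 25.9 and 21.5 CPM, at −0.35 ± 0.07. Lgals9, a galectin that is itself induced by interferon (chromosome 11, 78962974 to 78984946, minus strand), read 41.3, 38.5 and 40.9 against 31.9, 32.6 and 34.5 CPM, at −0.29 ± 0.07. Ddx60, an antiviral helicase, stood at −0.29 ± 0.07, Slfn8 at −0.55 ± 0.14, the heat shock factor gene Hsf4 at −0.54 ± 0.13, Tacc1 at −0.22 ± 0.05 and the spectrin gene Sptbn1 at −0.18 ± 0.04. Il1rl1, the receptor for interleukin 33 (chromosome 1, 40429570 to 40465415, plus strand), was the one gene of this set that was higher. It read 327, 354 and 318 CPM with the empty plasmid and 383, 392 and 380 CPM with the IL-27 plasmid, at 0.21 ± 0.05. Adjusted p-values of Akap9, Col6a3 and Lars2 were 0.798 each and those of the others 0.999 (edgeR).

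A further rule took genes with a mean of 5 CPM or more and libraries of the groups fully apart, predicted genes left out. The highest fold changes among those that did not pass were in matrix metalloproteinases. Mmp13, collagenase 3 (chromosome 9, 7272514 to 7283331, plus strand), read 27.2, 21.9 and 21.1 CPM with the empty plasmid and 32.5, 31.1 and 29.4 CPM with the IL-27 plasmid, at 0.40 ± 0.12 (SE). Mmp10, stromelysin 2, which lies on the same chromosome (7502352 to 7510240, plus strand), read 15.0, 13.6 and 14.2 against 19.9, 16.1 and 17.8 CPM, at 0.33 ± 0.10. Neither passed the test (adjusted p = 0.999 for each, edgeR). Rmdn2 followed at 0.31 ± 0.11, Arvcf, a catenin of cell junctions, at 0.28 ± 0.12, and the G protein subunit gene Gng2 at 0.26 ± 0.10. On the low side of the same rule stood Lars2, Slfn8, Irf7, Col7a1 at −0.38 ± 0.11 and Phf11d.

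The direct test of IL27_pepL against IL27_scr was read for these genes, since both groups expressed the cytokine and only the peptide differed. The control-peptide libraries serve in both comparisons, so a library low there would lower a gene in the first and raise it in the second. Over all genes 306 (2.52%) differed at an adjusted p under 0.05, 132 higher (1.09%) and 174 lower (1.44%) in IL27_pepL. This count moved with single libraries: it was 197 without empty-plasmid replicate 1, 72, 69 and 94 when control-peptide replicate 1, 2 or 3 was left out, and 1782 or 89 when IL27_pepL replicate 1 or 2 was. Rn45s was at 0.373% ± 0.052 of counts in IL27_scr and 0.364% ± 0.098 in IL27_pepL (SD, n = 3 each), with a 95% interval of the log2 difference from −0.34 to 0.34. Il27 did not pass the test between the IL-27 groups (log2 difference 0.23 ± 0.11, SE; adjusted p = 0.236, edgeR), nor did Ebi3 (0.52 ± 0.14; adjusted p = 0.0697). Ebi3 passed with DESeq2 (adjusted p = 0.0229) and without IL27_pepL replicate 1 (adjusted p = 0.00451). Lars2 (0.09, interval −0.22 to 0.40) and Akap9 (0.06, interval −0.09 to 0.20) did not pass either.

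Of the 49 interferon-stimulated genes, 31 passed the test as higher in IL27_pepL than in IL27_scr, against 1.09% of all genes. That count was 15 and 20 when control-peptide replicate 1 or 2 was left out, and 18 when IL27_pepL replicate 2 was. Over all genes, 72, 69 and 89 then differed in either direction. The genes named next were picked for their values between the control peptide and the empty plasmid, and Lgals9, Slfn8 and Il1rl1 are not on that list. Irf7 was higher in IL27_pepL by 1.07 ± 0.12 on the log2 scale (SE; adjusted p = 0.00139, edgeR), Phf11d by 0.83 ± 0.10 (adjusted p = 0.00208), Lgals9 by 0.69 ± 0.06 (adjusted p = 2.98e-04) and Slfn8 by 0.68 ± 0.14 (adjusted p = 0.0195). Il1rl1 was lower in IL27_pepL, at −0.33 ± 0.05 (adjusted p = 0.00593). Parp14 was higher by 0.53 ± 0.09 (adjusted p = 0.0106), a call that was lost without control-peptide replicate 1, 2 or 3, at adjusted p-values of 0.0559, 0.0508 and 0.0526. The call of Slfn8 was lost without control-peptide replicate 1 (0.101) or 2 (0.0993), without IL27_pepL replicate 2 (0.0811) and with only the compared groups in the fit (0.0531). Irf7, Phf11d, Lgals9 and Il1rl1 passed under every alternative run. Each alternative still used control-peptide libraries in both comparisons. Passing them all therefore cannot show whether the choice of these genes favoured the opposite direction, which was not tested.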

How the data were processed

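RNA sequencing counts were analysed for 6 libraries, with the 3 IL27_pepL libraries kept in the fit. The authors deposited whole-number counts per gene, 1 column per library, not normalized. The submitters' processing notes name FastQC, STAR (1.5.1 is printed beside it, which may not be its version), featureCounts, Subread 1.6.1, edgeR 3.22.5 and the mm10 build, without roles. For the annotation, strand setting and RNA selection the entry is: not given in the sources used here. Therefore overlapping, antisense or near-identical genes may share counts. The deposited counts appear to have been filtered, since each gene reached 0.500556 CPM in at least 3 libraries and 99 reads in total.

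In R 4.3.3, edgeR 4.0.16 fitted all 9 libraries with group as the only term, TMM scaling and the quasi-likelihood test. P-values were adjusted by Benjamini-Hochberg over 12125 genes at 0.05, and 0 genes were lost to filterByExpr. Replicates varied by a common biological coefficient of 5.76%. CPM values are TMM-scaled, and list means use a prior count of 2. The compared libraries held 27609884 to 35959983 counts each, and the report gives the precision by level of expression. Groups were taken from the labels. The procedure was tested on simulated data.

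The members, gene lists and tests were chosen with earlier results of these data known. Named genes were those past the test, fixed receptor and signalling genes, the 10 smallest unadjusted p-values at a mean of at least 1 CPM, the 5 highest and 5 lowest fold changes at a mean of at least 5 CPM without overlap, and 2 members per list. Predicted genes and genes with clone names were passed over in the choices by p-value and by fold change. Genes named beyond that rule were chosen after their values were seen. No list was tested as a set. The alternatives replaced TMM by the size factors of DESeq2 1.42.0, left the counts unfiltered, required 1 CPM in 3 libraries, or used the Wald test of DESeq2, limma-voom (limma 3.58.1), the compared groups alone, replicate number as a term, removal of Il27, Ebi3 and Rn45s, and omission of each library. Promoters came from RefSeq (GRCm38.p6), matched by symbol, and positions from GENCODE M21. Results for some genes of the lists are not reported here.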

Additional observations from a re-analysis of the deposited data

How the results depend on the processing

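Il27, Ebi3 and Rn45s were called under each alternative that kept them in the table. The count of called genes was 3 in each of those, except 4 with DESeq2, which added Akap9, and it was 0 once these 3 genes were removed before scaling. In all 17 alternatives the interferon-stimulated genes below 0 numbered 44 to 49. Those lower at an unadjusted p under 0.05 numbered 31 with only the compared groups in the fit, and from 4 to 28 when 1 library was left out. The share of all genes at such a p in either direction was 4.77% with only the compared groups. It ran from 1.71% to 4.29% when 1 library was left out. The count of genes that differed between IL27_pepL and IL27_scr was the least stable: 306 as reported, 793 with DESeq2, 165 with only the compared groups and 69 to 1782 when 1 library was left out, the highest without IL27_pepL replicate 1. The cause was not tested. Differences near 0 changed sign. For Rn45s between the IL-27 groups the value was 0.0015 with DESeq2 size factors, 0.0032 with the filter of 1 CPM and 0.0015 with DESeq2, and from −0.24 to 0.16 when 1 library was left out. Leaving out 1 library also changed the sign of Stat3 (−0.036 to 0.031), Jak2 (−0.062 to 0.018) and Rpl23 (−0.11 to 0.016), none past the test.

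The replicate numbers were checked for pairing. Deviations from the group mean of same-numbered libraries correlated across genes at 0.089, 0.21 and 0.072 between the compared groups, and at 0.32, 0.11 and 0.097 between IL27_scr and IL27_pepL. Not every value was over 0.1 in either, so numbers were not taken to pair libraries. With the replicate number as a block, 3 genes were called in the main comparison and 1110 between the IL-27 groups, with Ebi3 among them (adjusted p = 0.0210). Depth limits the genes below 1 CPM, where the 95% interval lay within a 2-fold change for 67.7%.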
